A study of Rattus norvegicus with 8 samples.

Results

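Glutamate and GABA receptor genes were followed in the pineal gland of the rat from late gestation to young adulthood. Members were the deposited rows whose symbol names an AMPA, kainate, NMDA, delta or metabotropic glutamate receptor gene, or a subunit of the GABA-A or GABA-B receptor. The rule found 55 transcripts of 46 genes among 16932 transcripts of 16462 symbols, and 49 transcripts of 41 genes are described here. Gria1, a further AMPA receptor gene, was not analysed here. Sprague-Dawley rats gave the glands, on day 21 of embryonic life (E21) or 5, 20 or 40 days after birth (P5, P20, P40). The animals were housed under 14 h of light and 10 h of dark. At each age 1 library was made at mid-night (zeitgeber time 19) and 1 at mid-day (zeitgeber time 7), so the series holds 8 libraries. Every library was a pool. In order of age the mid-night pools held 15, 19, 10 and 3 animals, and the mid-day pools 13, 17, 13 and 3. The labels name no mutation or drug treatment. The design sets ages against each other and night against day. Levels are deposited FPKM: sequenced fragments divided by transcript length in kilobases and by the mapped fragments of its library.

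Glutamate acts on ion channels of the AMPA, kainate and NMDA classes, which open within milliseconds, and on metabotropic receptors, which signal through G proteins. GABA opens a chloride channel, the GABA-A receptor, and acts on the G protein-coupled GABA-B receptor. The pineal gland makes melatonin at night. In rats its main cells, the pinealocytes, hold glutamate in small vesicles and can release it as a local signal that lowers melatonin output, and the gland shares many transcripts with retinal photoreceptors and bipolar cells.

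The tissue label was checked against marker genes. Tph1, the enzyme that hydroxylates tryptophan, ran from 331 to 2756 FPKM and Crx, a homeobox factor of pinealocytes and photoreceptors, from 104 to 195 FPKM. The other pinealocyte markers listed were not all high throughout. Asmt had 1.19 and 0.432 FPKM at mid-night and mid-day of E21, and Chrna3 2.66 and 4.18 FPKM. Aanat was at 1.72 FPKM at P40 mid-day, while Gngt2 had at least 48.9 FPKM in every library. The summed level of 9 choroid plexus markers, mostly Ttr, was 17935 FPKM at mid-night and 3187 FPKM at mid-day at P5 and 631 to 1641 FPKM in the other libraries, so P5 mid-night stood apart. Relative depth, read from the smallest steps of olfactory receptor values, ran from 0.422 of the deepest library at P20 mid-day to 1 at P40 mid-night. A low level in this table does not always show scarce RNA. Gapdh and Rps18, which every cell uses, reached only 0.524 and 0.579 FPKM in their highest library, while Actb ran from 291 to 1218 FPKM. Whether any receptor gene is affected in the same way was not tested.

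In each library between 8 and 14 of the 41 receptor genes described reached 1 FPKM after their transcripts were summed, and between 3 and 5 reached 5 FPKM. The gene with the highest level among them changed with age. It was Grm6 at E21, Gabrr1 at P20 mid-night and Grin2c in the remaining libraries. In order of mean level over the 8 libraries, Grin2c came first (16.5 FPKM), then Grm6 (9.92 FPKM), Grik5 (7.16 FPKM), Gabbr1 (5.95 FPKM), Gria2 (5.80 FPKM), Gabrr1 (5.67 FPKM) and Gabbr2 (3.64 FPKM). The neighbours Gabbr1, Gria2 and Gabrr1 in that order lay closer together than the spread of any of them over the libraries. Most of these genes were low, and 24 of the 41 stayed under 1 FPKM everywhere.

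**Figure D1:**
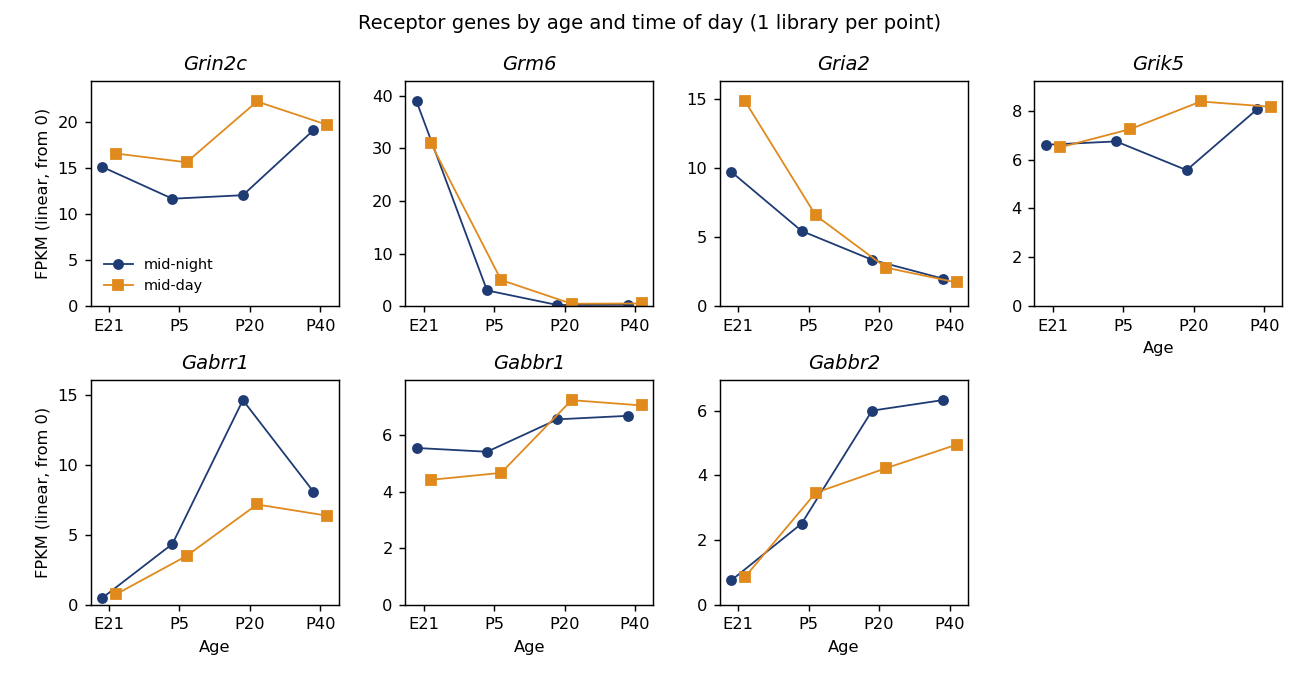
FPKM (vertical axis, linear from 0, scaled per gene) of 7 receptor genes that reached 5 FPKM in some library, by age, with 1 library per point and mid-night and mid-day in different colours. Grm6 and Gria2 are highest at E21, Gabrr1 and Gabbr2 are lowest at E21, and Grin2c, Grik5 and Gabbr1 change less.

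The 7 metabotropic glutamate receptor genes described summed to 45.1 ± 5.31 FPKM, 12.7 ± 2.11 FPKM, 4.62 ± 0.484 FPKM and 4.35 ± 0.0222 FPKM in order of age (mean ± SD, n = 2 libraries per age, 1 at mid-night and 1 at mid-day). The AMPA class summed over the same ages to 14.4 ± 3.62 FPKM, 7.71 ± 0.510 FPKM, 4.24 ± 0.581 FPKM and 2.68 ± 0.106 FPKM. The 16 GABA-A genes stood at 4.62 ± 0.656 FPKM, 7.03 ± 1.25 FPKM, 12.1 ± 4.76 FPKM and 8.05 ± 1.44 FPKM, and both GABA-B genes at 5.80 ± 0.714 FPKM, 8.03 ± 0.145 FPKM, 12.02 ± 0.778 FPKM and 12.5 ± 0.715 FPKM. The GABA receptor genes among them held 10.4% and 10.3% of the summed FPKM of all 41 genes at E21 mid-night and mid-day, and between 22.5% and 49.4% in the later libraries. These sums are descriptions and carry no test.

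P40 was set against E21 as the widest span of development in the series. Grm6, Grm4, Grm3, Grik4 and both Gria2 transcripts were lower at P40, and Gabrr1 and Gabbr2 were higher. Of the 49 receptor transcripts, 13 (of 12 genes) had at least 1 FPKM in at least 2 libraries and entered the fit, and 36 were too low to test. With limma on log2(FPKM + 1) and Benjamini-Hochberg adjustment over 9960 transcripts, 2 receptor transcripts rose and 6 fell at an adjusted p under 0.05. Among all transcripts tested 42.9% passed, 16.1% upwards and 26.8% downwards. The split depends on scaling: quantile normalization gave 3 up and 5 down (1957 and 2176 over all), and median centring 3 and 5 (2175 and 2004), against 2 and 6 (1602 and 2674) as deposited. Under both scalings Gabbr1 was gained upwards and Gria2 NM_017261 was lost. Of the 6 that fell, Grm4 reached 1 FPKM in both E21 libraries and in no other, so it could enter only through its high age. With both P5 libraries left out 8 passed. The median log2 change was -0.65 for the 13 receptor transcripts and -0.18 for all transcripts. Over the 4 ages, 9 of the 13 changed by the F test, against 36.4% of all transcripts, Grm4 and the Gria3 transcript NM_032990 among them; that transcript reached 1 FPKM only at mid-night of E21 and P5. Because each age has 1 pooled library per time of day, the p-values measure the spread between these pools only. For a change with age the model removes the night difference shared by the ages, and the spread includes night differences that vary between ages. A receptor transcript that entered the fit through its high age alone was bound to differ, so these counts describe the transcripts named below and nothing wider. In tissue pools, fewer cells of a type and less RNA per cell cannot be told apart.

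**Figure D2:**
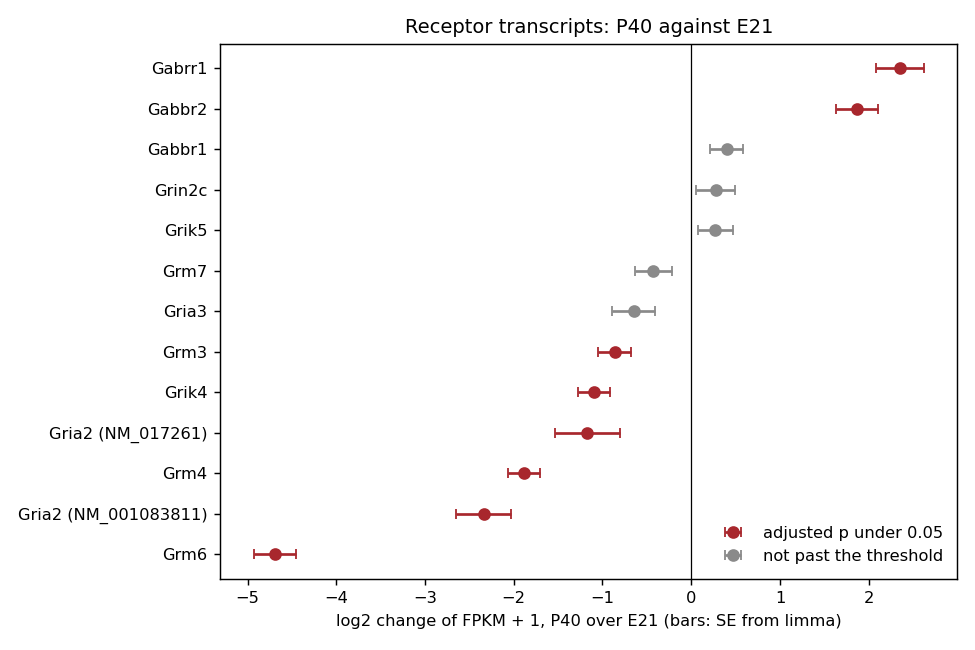
Log2 change of FPKM + 1 at P40 over E21 (horizontal axis) for 13 receptor transcripts, with the SE from limma as bars. Gabrr1 and Gabbr2 lie to the right among those past the threshold, and Grm6, Gria2, Grm4, Grik4 and Grm3 to the left.

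Grm6 encodes mGlu6, the receptor through which retinal ON bipolar cells sense glutamate from photoreceptors. Its gene lies at chr10:36421806-36436943 in build rn4. Grm6 stood at 38.9, 2.99, 0.216 and 0.270 FPKM at mid-night of E21, P5, P20 and P40, and at 31.1, 4.97, 0.459 and 0.508 FPKM at mid-day of the same ages. Both E21 libraries were far above all later ones, and P20 and P40 overlapped. It fell by 4.69 ± 0.24 on the log2 scale between E21 and P40 (SE; limma adjusted p = 2.63e-05). The step from E21 to P5 was -2.87 ± 0.24 (adjusted p = 0.000722) and that from P5 to P20 -1.87 ± 0.24 (adjusted p = 0.00651). Without the mid-night library of either P5 or P20 the second step no longer passed (adjusted p = 0.0507 and 0.0758). Of the summed FPKM of the 41 genes, Grm6 held 0.467% and 0.916% at mid-night and mid-day of P40, against 38.8% and 30.9% at E21.

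Of the tested genes that work with mGlu6 or are found in retinal bipolar cells, none passed downwards at P40 against E21. Of 14 such genes 12 had a row and 10 were tested, and at P40 against E21 6 rose and none fell, where 16.1% of all transcripts rose and 26.8% fell. Trpm1, the channel that the mGlu6 cascade closes, had 37.7 FPKM at mid-night and 32.8 FPKM at mid-day at P40, against 16.7 FPKM at mid-night and 12.9 FPKM at mid-day at E21 (log2 change 1.21 ± 0.22; limma adjusted p = 0.00353). Rgs7, which speeds the switching-off of the G protein, had 23.9 FPKM at mid-night and 39.3 FPKM at mid-day at P40, against 0.342 FPKM at mid-night and 0.456 FPKM at mid-day at E21 (4.50 ± 0.21; limma adjusted p = 1.97e-05). Cabp5, a calcium-binding protein, changed by 1.97 ± 0.21, the G protein subunit gene Gng13 by 2.28 ± 0.20, Gnb5 by 1.65 ± 0.24 and Gnb3 by 0.88 ± 0.30. Nyx, which encodes nyctalopin, a surface protein that holds Trpm1 at the bipolar cell synapse, did not pass (0.10 ± 0.30; limma adjusted p = 0.811). Isl1, a homeobox gene that marks bipolar cells, and Pcp2 had a row but were too low to test, and both went down. Isl1 had 0.922 FPKM at mid-night and 2.09 FPKM at mid-day of E21, and Pcp2 0.405 and 0.928 FPKM. Both genes were listed at 0 at mid-night and mid-day of P40. Gpr179 and Lrit3 were not analysed here. At mid-night against mid-day of P20 and P40, Nyx rose (0.93 ± 0.20; limma adjusted p = 0.0445), and Gng13 (-1.03 ± 0.19) and Rgs9bp (-1.01 ± 0.20) fell, where 2.8% of all transcripts rose and 1.59% fell.

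**Figure D3:**
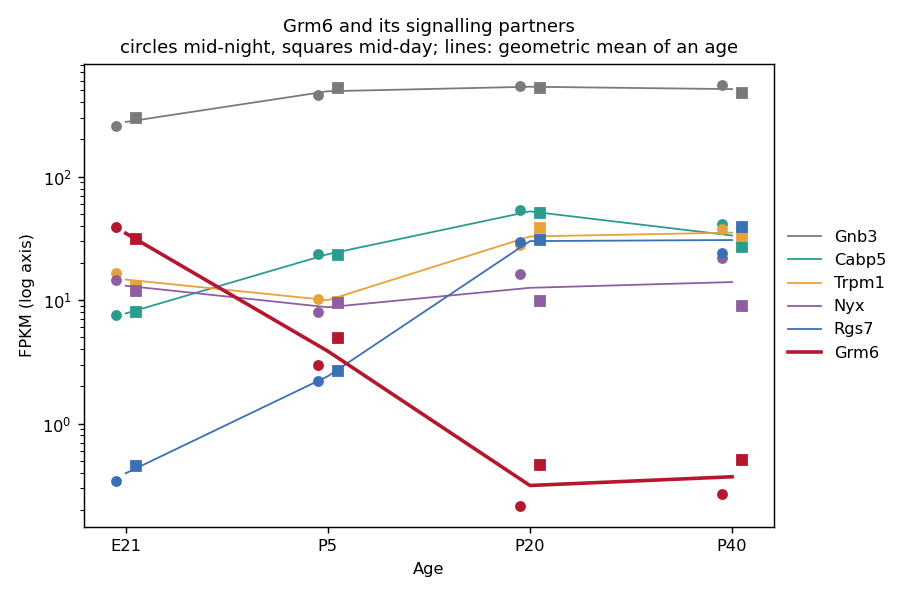
FPKM on a log axis by age of Grm6 and 5 genes that work with mGlu6 or are found in retinal bipolar cells. Circles are mid-night, squares mid-day, and lines run through the geometric mean of each age. Grm6 drops from above 30 FPKM at E21 to under 1 FPKM at P20 and P40, while Rgs7 climbs past it and Trpm1, Nyx, Cabp5 and Gnb3 stay at 8 FPKM or above at P5 and later.

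Grm2 and Grm3 encode receptors that lower cyclic AMP through Gi, and Grm3 is the one described on rat pinealocytes. Grm3 stood at 3.68, 3.38, 1.33 and 1.44 FPKM at mid-night of E21, P5, P20 and P40, and at 4.90, 3.78, 1.70 and 2.42 FPKM at mid-day of the same ages. The values at P40 were below those at E21 at both times. It fell by 0.86 ± 0.18 on the log2 scale at P40 against E21 (SE; limma adjusted p = 0.00781), but not past the threshold without E21 mid-day or P40 mid-night (adjusted p = 0.0526 and 0.0806). Grm2 was too low to test. It was listed at 0 at mid-day of P20 and P40, against 0.448 and 0.614 FPKM at mid-night of those ages. Grm5, which signals through Gq, stayed at 0.0570 FPKM or below.

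Of the remaining Gi-coupled group, which includes Grm6, Grm4 was highest at E21 and Grm7 at P5. Grm4, a presynaptic receptor in the cerebellum, had 0.0652 FPKM at mid-night and 0.148 FPKM at mid-day at P40, against 3.30 FPKM at mid-night and 2.89 FPKM at mid-day at E21. At P5 it stood at 0.582 FPKM at mid-night and 0.872 FPKM at mid-day. Because it entered the fit through E21 alone, its log2 differences from E21 (-1.89 ± 0.18 at P40 and -1.25 ± 0.18 at P5) are descriptions. Grm7, another presynaptic receptor, had 3.88 FPKM at mid-night and 3.95 FPKM at mid-day of P5, above its 6 other libraries at 1.25 to 2.51 FPKM. It passed the F test over ages (limma adjusted p = 0.0259), while P40 against E21 did not pass (-0.43 ± 0.21; adjusted p = 0.135). Grm8 stayed between 0.0372 and 0.550 FPKM.

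AMPA receptors carry fast excitation, and the subunit of Gria2 makes them impermeable to calcium once its RNA is edited. Gria2 was the leading AMPA gene among those analysed and lost most of its level with age. The sum of its 2 transcripts stood at 9.73, 5.44, 3.35 and 1.998 FPKM at mid-night of E21, P5, P20 and P40, and at 14.8, 6.57, 2.78 and 1.71 FPKM at mid-day of the same ages. Each older age lay below the younger one at both times of day. Summed, it fell by 2.19 ± 0.23 on the log2 scale at P40 against E21 (limma adjusted p = 0.000235). The transcripts share the span chr2:172265159-172385285 in rn4 and may share reads. NM_001083811 changed by -2.34 ± 0.31 (adjusted p = 0.000968) and NM_017261 by -1.17 ± 0.37 (adjusted p = 0.0343). The call of NM_017261 was lost without any 1 of the E21 and P40 libraries (adjusted p between 0.0834 and 0.13), and after quantile normalization (0.144) or median centring (0.101).

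Gria3 and Gria4 were lower. The 2 transcripts of Gria3 were each at or near 0 in libraries where the other was not, so only their sum is read here. It stood at 0.324 FPKM at mid-night and 0.499 FPKM at mid-day of P40, against 1.54 and 1.59 FPKM at mid-night and mid-day of E21. That sum fell by 0.87 ± 0.20 (limma adjusted p = 0.0103). The 3 transcripts of Gria4 summed to between 0.390 and 0.770 FPKM and were not tested. Among AMPA and kainate auxiliary subunits 10 of 12 had a row and 3 were tested, of which 1 rose and 2 fell at P40 against E21, where 16.1% of all transcripts rose and 26.8% fell. Cacng2, the founding trafficking subunit of AMPA receptors, rose (1.06 ± 0.23; limma adjusted p = 0.00785). Cnih2, a cornichon that slows AMPA channels, fell (-1.85 ± 0.24), as did the kainate partner Neto2 (-1.27 ± 0.32).

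Kainate receptors were led at every age by Grik5, a subunit that needs a partner of the Grik1 to Grik3 group to form a channel. Grik5 stood at 6.61, 6.75, 5.57 and 8.06 FPKM at mid-night of E21, P5, P20 and P40, and at 6.50, 7.25, 8.38 and 8.16 FPKM at mid-day of the same ages. Its values lay between 5.57 and 8.38 FPKM and no comparison passed (P40 against E21, 0.27 ± 0.20; limma adjusted p = 0.294). The partner subunits were lower at P40 than at E21. Grik1, Grik2 and Grik3, summed per gene, had between 0.726 and 1.70 FPKM at E21 and at most 0.204 FPKM at P40. With its 2 transcripts summed, Grik3 had 0.0344 FPKM at mid-night of P40 and was listed at 0 at mid-day, against 1.48 and 1.06 FPKM at mid-night and mid-day of E21, which were its only values over 1 FPKM. Grik4, which like Grik5 needs a partner, had 0.348 FPKM at mid-night and 0.331 FPKM at mid-day at P40, against 1.53 FPKM at mid-night and 2.25 FPKM at mid-day at E21, and fell by 1.10 ± 0.18 (limma adjusted p = 0.00241).

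NMDA receptors are built around the product of Grin1 with subunits of the Grin2 or Grin3 group. The table showed Grin2c at high levels and all others low. Grin2c stood at 15.1, 11.6, 12.02 and 19.1 FPKM at mid-night of E21, P5, P20 and P40, and at 16.5, 15.6, 22.2 and 19.6 FPKM at mid-day of the same ages. Grin2c, known from cerebellar granule cells and astrocytes as a subunit of weak magnesium block, was the highest of the genes described in 5 of the 8 libraries. No comparison of Grin2c passed. At P40 against E21 its log2 change was 0.28 ± 0.22 (limma adjusted p = 0.343), and at mid-night against mid-day of P20 and P40 -0.44 ± 0.22 (adjusted p = 0.317). Grin1 stood between 0.0242 and 0.227 FPKM, below Grin2c in every library. Grin2b was listed at 0 in all 4 libraries of P20 and P40 and reached 0.276 FPKM at E21 mid-night. Grin2a, Grin2d, Grin3a (2 transcripts summed) and Grin3b had their highest values at 0.625, 0.354, 0.301 and 0.976 FPKM. Grid1, a delta receptor gene related to these channels, had its highest value at 0.866 FPKM at E21 mid-day and was not tested.

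Of the 16 GABA-A subunit genes described, Gabrr1 alone reached the level for testing, and 13 stayed under 1 FPKM everywhere. Gabrr1 encodes rho1, which forms receptors on its own and is known from retinal bipolar cells. Gabrr1 stood at 0.472, 4.36, 14.6 and 8.11 FPKM at mid-night of E21, P5, P20 and P40, and at 0.757, 3.49, 7.18 and 6.38 FPKM at mid-day of the same ages. All 6 postnatal values exceeded both E21 values, and P20 mid-night was the highest. It rose by 2.35 ± 0.27 at P40 against E21 (limma adjusted p = 0.000547). The step from E21 to P5 was 1.61 ± 0.27 (adjusted p = 0.00856), and it did not pass without P5 mid-night or P5 mid-day (adjusted p = 0.0567 and 0.0761). The step from P5 to P20 was 1.21 ± 0.27 (adjusted p = 0.0396), and 0.79 without P20 mid-night (adjusted p = 0.26). That step also failed to pass without any 1 of the P5 and P40 libraries (adjusted p between 0.0587 and 0.277). The P5 to P20 step is weakly held in other settings too. Its call was lost with a pseudocount of 0.1 or 5, with no filter, with 5 FPKM required in 2 libraries and with age as the only term. At mid-night Gabrr1 was 2.04 times its mid-day level at P20 and 1.27 times at P40. That night difference did not pass (0.62 ± 0.22; adjusted p = 0.165).

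The neighbouring gene did not share these levels. Gabrr2 lies at chr5:49349963-49387218 in rn4, ending 34.2 kb before the start of Gabrr1 at chr5:49421463-49458535. It reached no more than 0.611 FPKM, and Gabrr3, on chromosome 11, no more than 0.403 FPKM. The 250 bases before each start in RefSeq (build GRCr8) are printed because the 3 genes are close relatives with unlike levels. Capitals mark TGACG, the half-site of the cyclic AMP response element, and TAATCC, a core that CRX and OTX factors bind, on either strand (CGTCA and GGATTA), with no overlap between them.
Gabrr1, chr5:52320225-52320474, plus strand: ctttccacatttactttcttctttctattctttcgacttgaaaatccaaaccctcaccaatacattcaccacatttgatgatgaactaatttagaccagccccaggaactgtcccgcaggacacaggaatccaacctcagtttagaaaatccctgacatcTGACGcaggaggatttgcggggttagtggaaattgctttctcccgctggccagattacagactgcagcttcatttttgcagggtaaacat
Gabrr2, chr5:52248228-52248477, plus strand: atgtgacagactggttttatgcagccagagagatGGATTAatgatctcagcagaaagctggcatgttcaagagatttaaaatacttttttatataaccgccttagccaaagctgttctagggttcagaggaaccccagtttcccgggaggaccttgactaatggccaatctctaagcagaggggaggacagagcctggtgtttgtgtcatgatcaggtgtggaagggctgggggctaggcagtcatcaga
Gabrr3, chr11:54424467-54424716, minus strand: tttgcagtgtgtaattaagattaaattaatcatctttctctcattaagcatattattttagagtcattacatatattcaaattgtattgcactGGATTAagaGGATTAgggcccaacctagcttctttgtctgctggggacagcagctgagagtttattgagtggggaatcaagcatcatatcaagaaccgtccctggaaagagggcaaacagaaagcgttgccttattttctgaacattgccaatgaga
The window before Gabrr1 holds 1 TGACG and no TAATCC, that before Gabrr2 holds 1 TAATCC on the other strand, and that before Gabrr3 holds 2. Of 33469 windows of this length, 18.2% hold TGACG and 6.3% TAATCC. Of the 30 receptor genes matched in that table, 4 hold TGACG (Gabbr2, Gabrr1, Grik2 and Grin1) and 2 hold TAATCC. These are matches of letters, not shown to be bound.

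Of the alpha subunit genes, which help to form the GABA site, Gabra2 reached 1 FPKM once, with 1.17 FPKM at P5 mid-night. Gabra3, Gabra4, Gabra5 and Gabra6 had their highest values at 0.710, 0.151, 0.353 and 0.436 FPKM. The beta subunit genes Gabrb1 and Gabrb2 had theirs at 0.261 and 0.480 FPKM. Gabrg3, a gamma subunit gene, had 0.141 FPKM at mid-night of P40 and was listed at 0 at mid-day, against 0.777 and 1.35 FPKM at mid-night and mid-day of E21. Gabrg1, Gabre and Gabrq had their highest values at 0.235, 0.0528 and 0.0517 FPKM. Gabrd, known from receptors outside synapses, and Gabrp were listed at 0 in 7 of 8 libraries each.

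The GABA-B receptor is a pair of Gabbr1, which binds GABA, and Gabbr2, which carries the pair to the surface and couples it to the G protein. As deposited, Gabbr2 passed the threshold with age and Gabbr1 did not. Gabbr2 stood at 0.752, 2.51, 6.01 and 6.33 FPKM at mid-night of E21, P5, P20 and P40, and at 0.870, 3.46, 4.23 and 4.95 FPKM at mid-day of the same ages. Each postnatal value was above both E21 values. It rose by 1.87 ± 0.23 at P40 against E21 (limma adjusted p = 0.000724) and by 1.13 ± 0.23 from E21 to P5 (adjusted p = 0.0171). That first step did not pass without E21 mid-night, E21 mid-day or P5 mid-day (adjusted p = 0.0871, 0.0589 and 0.141). Gabbr1 stood at 5.55, 5.42, 6.56 and 6.69 FPKM at mid-night of E21, P5, P20 and P40, and at 4.42, 4.67, 7.24 and 7.05 FPKM at mid-day of the same ages. Its change was 0.40 ± 0.19 (adjusted p = 0.116), which did not pass, whereas it rose by 0.60 ± 0.16 after quantile normalization (limma adjusted p = 0.0231) and by 0.59 ± 0.16 after median centring (adjusted p = 0.0214). At P40 Gabbr1 averaged 6.87 ± 0.259 FPKM and Gabbr2 5.64 ± 0.974 FPKM, against 4.99 ± 0.797 FPKM and 0.811 ± 0.0835 FPKM at E21 (SD, n = 2 libraries). Of the partner channels of GABA-B receptors, Kcnj3, Kcnj5 and Kcnj6 stayed under 0.3 FPKM, and Kcnj9 had 0.389 FPKM at mid-night and 0.2001 FPKM at mid-day at P40, against 1.10 FPKM at mid-night and 1.28 FPKM at mid-day at E21, the age through which alone it entered the fit.

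Single steps in age called fewer receptor transcripts. From E21 to P5, 2 rose (Gabrr1 and Gabbr2) and 2 fell (Grm6 and Grm4) of 13, where 15.1% of all transcripts passed (8.29% up and 6.84% down). Grm4 entered the fit through E21 alone, so its fall was bound to the filter. Without E21 mid-night, E21 mid-day or P5 mid-day 2 receptor transcripts passed this step, and the count over all transcripts was 865, 570 and 436 in that order, against 1507 with every library. With transcripts summed, Gria2 (-0.90 ± 0.23; limma adjusted p = 0.0328) fell as well. From P5 to P20, 1 rose (Gabrr1) and 3 fell (Grm6, Grm3 and Gria2 NM_001083811), where 7.02% passed (1.02% up and 5.99% down). This split depends on scaling as well. Quantile normalization gave 1 up and 1 down (219 and 313 over all), and median centring 1 and 1 (173 and 325), against 102 and 597 over all as deposited. Under both scalings the calls of Grm3 and Gria2 NM_001083811 were lost (limma adjusted p between 0.0707 and 0.0822). No receptor transcript passed this step once the mid-night library of P5 or that of P20 was left out, 1 passed without P5 mid-day, and 2 passed without P20 mid-day or either P40 library. Over all transcripts this step called 699 with every library, 35 without P5 mid-night, 53 without P20 mid-night, 360 without P5 mid-day, 191 without P20 mid-day, 536 without P40 mid-night and 531 without P40 mid-day, so the loss was not limited to receptor transcripts. The Grm3 step (-0.87 ± 0.18; limma adjusted p = 0.0325) and the Gria2 step (-1.39 ± 0.31; adjusted p = 0.0387) are weakly held. Without any 1 P5 or P20 library they had adjusted p between 0.0833 and 0.26 (Grm3) and between 0.0605 and 0.329 (Gria2). Grm3 did not pass without P40 mid-night or P40 mid-day either (adjusted p = 0.0536 and 0.0537). For P40 against P20 limma called 0 of 13, and 0 of 9960 over all (669 of all and 0 of the 13 at an unadjusted p under 0.05).

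None of the 13 receptor transcripts passed a test of night against day by limma. The night differences with an unadjusted p under 0.05 at P20 and P40 were those of Gabrr1, given above, and Grm7 (0.43 ± 0.18; adjusted p = 0.241), so 0 of 13 were called and 2 had such a p, where 4.39% of all transcripts passed (2.8% up and 1.59% down). At E21 and P5 0 of 13 were called (1 unadjusted), against 0.0301% of all (0.0201% up and 0.01% down). That one is NM_032990 of Gria3, but the summed Gria3 level differed by 0.11 ± 0.20 there (limma unadjusted p = 0.599). The difference between the older and the younger night effect gave 0 of 13 (1 unadjusted), against 0.753% of all (0.612% up and 0.141% down). That one was Gabbr2, with 0.58 ± 0.24 (limma adjusted p = 0.364). Over the 4 ages together limma called 0 of 13, and 0 of 9960 over all (1 of the 13 and 1011 of all at an unadjusted p under 0.05). At single ages, which carry no test, 0 of the 13 were at least 2-fold higher at mid-night on the scale of FPKM + 1, where the background at E21, P5, P20 and P40 was 0.783%, 1.55%, 2.44% and 3.04% of all transcripts. NM_017261 of Gria2 at P5 was at least 2-fold lower at mid-night, and no other was at any age. Its mid-night level was 0.296 times the mid-day level, while that of NM_001083811, which may share its reads, was 1.35 times and their sum 0.828 times. The background of such lower values was 1.24%, 0.301%, 2.72% and 1.34% at the same ages. Grin2c was 0.542 times its mid-day level at P20 mid-night and 0.970 times at P40. Gabbr2 was 1.42 times its mid-day level at P20 mid-night and 1.28 times at P40.

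Genes that make, pack and remove the transmitters were read from lists. For glutamate, 13 of 14 had a row and 11 were tested, and at P40 against E21 3 rose and 3 fell, where 16.1% of all transcripts rose and 26.8% fell. Slc17a7, the vesicular transporter VGLUT1, had 273 FPKM at mid-night and 276 FPKM at mid-day at P40, against 34.5 FPKM at mid-night and 24.4 FPKM at mid-day at E21 (3.20 ± 0.27; limma adjusted p = 0.000146). The amino acid carrier gene Slc38a1 rose by 3.10 ± 0.29 and the more abundant transcript of the glial glutamate transporter gene Slc1a2 by 0.69 ± 0.21. The other Slc1a2 transcript went the other way. It had 0.614 and 1.23 FPKM at mid-night and mid-day of P40, against 3.40 and 3.48 FPKM at E21. Transporter genes Slc1a1 (-1.89 ± 0.22), Slc1a3 (-0.95 ± 0.26) and Slc38a2 (-1.03 ± 0.18) fell. At mid-night of P20 and P40, 2 of the 11 rose against mid-day, where 2.8% of all transcripts rose. Slc17a6, the second vesicular transporter VGLUT2, had 57.7 and 98.7 FPKM at mid-night of P20 and P40, against 20.2 and 17.5 FPKM at mid-day (1.95 ± 0.25; limma adjusted p = 0.00683). The other was the glutaminase gene Gls2, with 1.55 and 3.80 FPKM at mid-night of P20 and P40, against 0.536 and 0.631 FPKM at mid-day. It reached 1 FPKM in those 2 mid-night libraries alone, so its call was bound to the filter.

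For GABA, 10 of 11 genes had a row and 5 were tested, and at P40 against E21 3 rose and none fell, where 16.1% of all transcripts rose and 26.8% fell. Slc12a5, the chloride exporter KCC2 that sets the direction of GABA-A currents, had 61.8 FPKM at mid-night and 54.2 FPKM at mid-day at P40, against 13.8 FPKM at mid-night and 9.01 FPKM at mid-day at E21 (2.27 ± 0.28; limma adjusted p = 0.000707). The chloride importer gene Slc12a2 did not pass with age (0.54 ± 0.25; adjusted p = 0.11) but was higher at mid-night of P20 and P40 (1.02 ± 0.20; adjusted p = 0.0289). Dbi, which encodes a ligand of the benzodiazepine site, rose by 1.38 ± 0.17. The betaine and GABA transporter gene Slc6a12 rose by 1.16 ± 0.27. Gad1, Gad2 and Slc32a1, which make and pack GABA in neurons, reached at most 0.434, 0.543 and 0.109 FPKM.

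Of 13 genes tested from a list of scaffold and binding proteins of glutamate receptors, 3 rose and 4 fell at P40 against E21. That was close to the background of 16.1% up and 26.8% down. Nsf, an ATPase that binds the Gria2 subunit, rose by 2.99 ± 0.18 and Dlg4, which encodes PSD-95, by 1.49 ± 0.22 (limma adjusted p = 4.13e-05 and 0.00165). Grip1, a scaffold of Gria2 and Gria3, fell (-1.49 ± 0.20), as did Shank3 (-0.72 ± 0.20) and Dlg3 (-0.78 ± 0.19). The remaining one, Shank1, entered the fit through E21 alone, with 0.288 FPKM at mid-night and 0.376 FPKM at mid-day at P40, against 1.07 FPKM at mid-night and 1.02 FPKM at mid-day at E21. Dlg2, a relative of Dlg4, rose (1.19 ± 0.18). In the list of the inhibitory postsynapse and GABA-B partners 2 rose and 1 fell of 7 tested, against the same background, Gabarapl1 (1.18 ± 0.16) and Gabarapl2 (1.04 ± 0.20) upwards and Kcnj9, described above, downwards. Gphn, the gephyrin scaffold of inhibitory synapses, did not pass (0.38 ± 0.18; adjusted p = 0.128).

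Markers of cell types moved with age beside the receptor genes. Of 6 pinealocyte markers tested 4 rose at P40 against E21 and none fell, where 16.1% of all transcripts rose and 26.8% fell, and their summed level was 4823 FPKM at mid-night and 4066 FPKM at mid-day at P40, against 517 FPKM at mid-night and 552 FPKM at mid-day at E21. All 5 immature neuron markers tested fell, and they summed to 29.5 FPKM at mid-night and 29.1 FPKM at mid-day at P40, against 206 FPKM at mid-night and 266 FPKM at mid-day at E21. Endothelial markers fell in 3 of 3 tested, with sums of 9.56 and 12.4 FPKM at mid-night and mid-day of P40, against 36.7 and 28.8 FPKM at E21. Astrocyte markers parted, with 4 up and 2 down of 6. The part of these cell types in the change of any receptor gene was not tested. Brain neuron markers had 2 up and 2 down of 5 tested. They summed to 789 FPKM at mid-night and 692 FPKM at mid-day at P40, against 341 and 363 FPKM at E21. That sum was mostly Snap25, with 552 and 559 FPKM at mid-night and mid-day of P40, against 238 and 245 FPKM at E21. Syt1 was higher at P40 too. Nefm and Tubb3 reached 1 FPKM at E21 alone, so their falls were bound to the filter. At P40 they had at most 0.0973 and 0.253 FPKM. Microglial markers had 3 up and 1 down of 5, those of choroid plexus 0 up and 3 down of 9, of the oligodendrocyte lineage 0 and 1 of 4, and of habenula 1 and 1 of 3. The habenula marker that fell, Tac1, reached 1 FPKM at E21 alone, so its fall was bound to the filter. Cspg4 of the oligodendrocyte lineage reached 1 FPKM only at mid-night of E21 and P5. Of 8 brain neuron markers with a row, Gad1, Gad2 and Nefl stayed under 1 FPKM in every library, as did the habenula marker Gpr151 of 4 with a row.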

How the data were processed

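Polyadenylated RNA of pooled pineal glands was sequenced from random-primed cDNA. The submitters' processing notes name TopHat 1.3.1, Cufflinks 1.2.0 and build rn4, and the authors deposited FPKM per RefSeq transcript. Any scaling beyond that is not given in the sources used here. Deposited starts count from 0 (end minus start was a multiple of 3 in 99.7% of 1192 short olfactory receptor transcripts), so 1 was added. No read counts were used, so depth is known only in relative terms.

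The log2 of FPKM + 1, a scale that understates changes of low genes, was fitted with limma 3.58.1 in R 4.3.3 (trended eBayes, two-sided tests, Benjamini-Hochberg over 9960 transcripts reaching 1 FPKM in 2 or more libraries). One model held age and time of day, leaving 3 residual degrees of freedom. The other held age and a night effect for each pair of ages (E21 with P5, P20 with P40), leaving 2. The script was also run on simulated data with independent noise and no night differences that vary between ages. That run does not measure how often the tests above err.

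Receptor genes reaching 5 FPKM are given in every library where values are listed in full, and the rest by range or highest value. Listed genes are those of highest mean level past the test and direct partners, each by its most abundant transcript. Members and lists were chosen with earlier results of these data known. Some receptor genes and listed genes are not reported here, and counts, sums and shares cover the others. Grm2, Grin1, Isl1, Pcp2, the second Slc1a2 transcript and the named brain neuron markers were singled out after values were seen. The summing of transcripts was also added after values were seen. Alternatives changed the pseudocount, filter, scaling, eBayes settings, model terms and libraries included.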

Additional observations from a re-analysis of the deposited data

How the results depend on the processing

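In the alternative runs that tested it, no called receptor transcript changed direction: 239 values kept their call and 47 lost it. Runs whose filter left a transcript out are not counted. The kept values include 16 and 15 of Grm4 (P40 and P5 against E21), which entered the reported fit through E21 alone. The run on summed transcripts was counted for each Gria2 transcript. With no filter on low values, 49 receptor transcripts were tested, and the number called was 17 for the F test over ages (3179 over all transcripts), 19 for P40 against E21 (4202), 9 for P5 against E21 (1200), 2 for P20 against P5 (373) and 1 for the night at P20 and P40 (105). With 5 FPKM required in 2 libraries 7 were tested, and the number called was 4 for the F test over ages (2322 over all), 4 for P40 against E21 (2838) and 1 for P20 against P5 (372). The total tested under either filter is not given here, so neither set of counts has a background share. P20 against P5 gave 1 with a pseudocount of 5 (397 over all), and 2 after quantile normalization (532), after median centring (498) and with age as the only term (619), against 4 (699) as reported. The cause of these last changes was not tested.

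Leaving out 1 library at a time gave 7 to 9 calls for the F test over ages, 6 to 8 for P40 against E21, 2 to 4 for P5 against E21 and 0 to 5 for P20 against P5, and 0 for the night over 4 ages, the night at P20 and P40 and the difference between night effects; the night at E21 and P5 was not run this way, and a library left alone at its age is assumed to vary like the others. Over all transcripts the number called also changed with the library left out, for each of these tests but the night over 4 ages. These ranges are therefore not particular to receptor transcripts. With every library, 4.39% of all transcripts passed for the night at P20 and P40, and 0.753% for the difference between night effects. A count of 0 among at most 13 receptor transcripts does not set them apart from that background. No paired analysis was possible because each age and time of day has 1 library, beyond the pairing of mid-night with mid-day inside each age that the models already hold.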
